A study of Mus musculus with 8 samples.

Results

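Amphiregulin (Areg) and 5 other genes tied to tissue repair, Hbegf, Furin, Tgfb1, Vegfa and Adam17, were followed in sorted lymphoid tissue inducer (LTi) cells of the mouse gut. These 6 genes, of 27179 in the deposited table, were taken by symbol because Areg and Furin were higher in the small intestine lamina propria (LP) than in Peyer's patches (PP) in both genotypes. The difference between LP and PP is therefore what chose them, and it is given for them as a description with no test. The genotype comparisons within a tissue did not enter the choice and were tested. The interaction of genotype and tissue was tested too, but it is built from the tissue differences that chose the genes.

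RNA from 8 Smart-seq2 libraries was measured, 2 in each of 4 groups: LP from Tcf7fl/fl mice with a Cre transgene (labelled Tcf7-KO), LP from Tcf7+/+ mice (Ctrl), PP labelled Tcf7-KO and PP Ctrl. All mice were C57BL/6. The sorted cells were live and lineage-negative, carried CD127 and CCR6, and lacked KLRG1, NK1.1 and NKp46. The labels give no age or sex and do not say whether libraries came from separate animals. The p-values thus measure only the spread between these libraries, which may be technical.

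Amphiregulin and heparin-binding EGF-like growth factor (Hbegf) are ligands of ErbB receptors made as membrane-bound precursors. The protease ADAM17 cuts them free, and furin cleaves the proforms of ADAM17 and of TGF-β1 among many others. In the gut, innate lymphoid cells are known as one source of amphiregulin, which acts on epithelium and stroma, and VEGF-A is known for driving vessel growth.

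The targeted gene was present in every library. Tcf7, which encodes the transcription factor TCF-1, had 237 and 215 RPKM in LP labelled Tcf7-KO and 229 and 246 RPKM in LP Ctrl. It had 355 and 337 RPKM in PP labelled Tcf7-KO and 243 and 85.4 RPKM in PP Ctrl. RPKM is reads per kilobase of gene, scaled to the library's total reads. A gene-level value does not separate the deleted stretch from the rest of the transcript, so the labels could not be checked with it. Xist, which is expressed from the X chromosome of female cells, had 60.3 and 0.0866 RPKM in LP labelled Tcf7-KO, 0.0712 and 0.0784 in LP Ctrl, 0.326 and 1.84 in PP labelled Tcf7-KO and 9.60 and 9.22 in PP Ctrl. The 2 libraries of LP labelled Tcf7-KO thus stood far apart in Xist. Both PP Ctrl libraries stood above both LP Ctrl libraries and both PP libraries labelled Tcf7-KO. A part of sex in the tissue and genotype comparisons was not tested. Depth, estimated from what 1 read is worth in genes of known length, was 38.1 to 43.9 M reads per library. Mitochondrial genes took 13.4% and 13.6% of the RPKM sum in PP labelled Tcf7-KO and 3.06% to 5.06% in the other 6 libraries.

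The sorted cells carried the transcripts of their gate in every library: Ccr6 was at least 89.3 RPKM and Il7r at least 206. The 11 LTi identity genes summed to 2905 to 3709 RPKM in LP and 5768 to 6528 RPKM in PP. The members of this list did not move together: the lymphotoxin gene Ltb had 262 to 578 RPKM in LP and 1839 to 2248 in PP, whereas Tnfsf11 (RANKL) had 546 to 931 RPKM in LP and 32.9 to 175 in PP, and Il7r, Il23r and Kit overlapped between the tissues. In bulk RNA, fewer cells of a type and less RNA per cell cannot be told apart.

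Across the 6 factors, 4 had LP libraries that all lay above the PP libraries in mice labelled Tcf7-KO (Areg, Furin, Hbegf and Vegfa), where 17.5% of the 10541 genes tested did so. Adam17 alone was lower without overlap there, as were 28.1% of all genes. In Ctrl mice 3 were higher without overlap (Areg, Furin and Vegfa), where 26% of all genes did so, and none was lower, against 21.4% of all genes. All 6 passed the filter of at least 1 RPKM in at least 2 libraries.

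**Figure D1:**
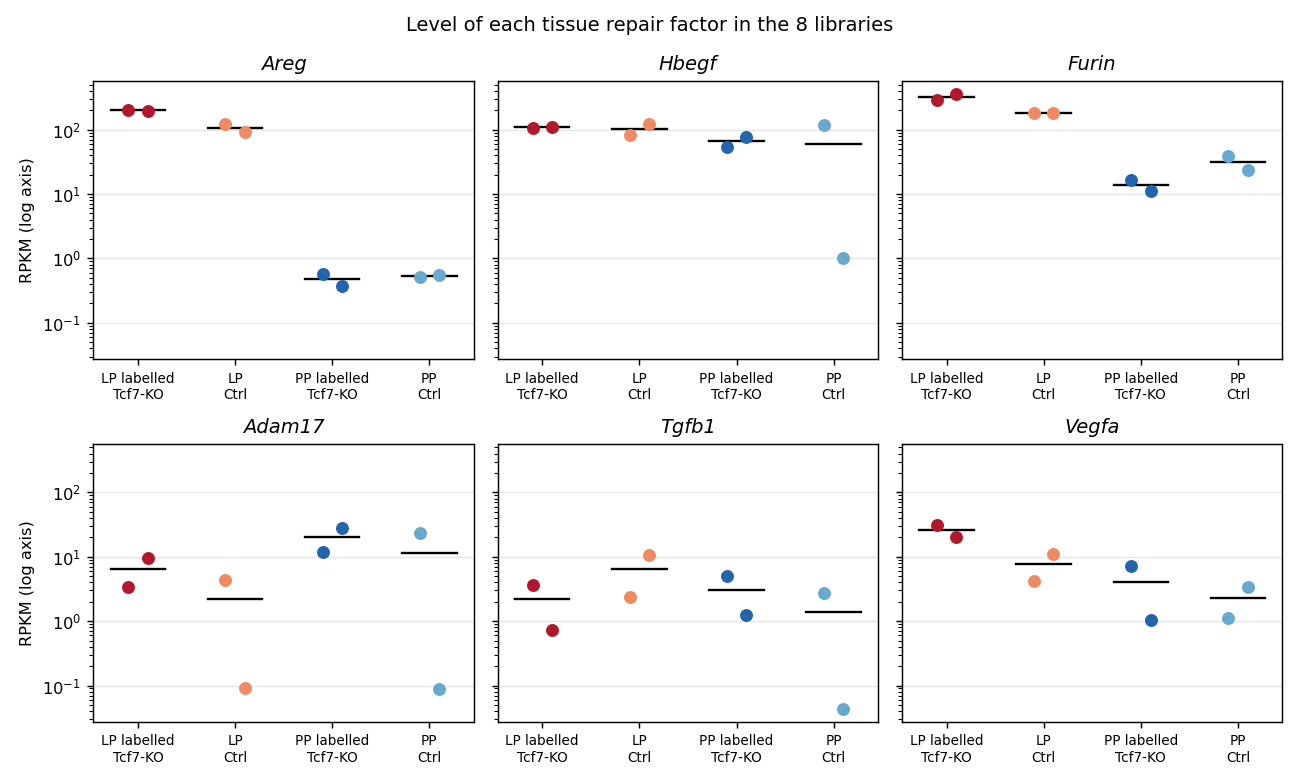
RPKM of each factor (log axis) in the 8 libraries: points are libraries, bars are means of 2 libraries, and groups run from LP labelled Tcf7-KO to PP Ctrl. Areg lies between 90.9 and 204 RPKM in LP and between 0.373 and 0.582 RPKM in PP, while Hbegf, Tgfb1 and Adam17 each have 1 PP Ctrl library far below the other.

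Areg (Entrez Gene 11839) lies on chromosome 5 at 91139599 to 91148432 of GRCm38.p6. It had 204 and 193 RPKM in LP labelled Tcf7-KO and 122 and 90.9 RPKM in LP Ctrl. In PP it had 0.582 and 0.373 RPKM in libraries labelled Tcf7-KO and 0.513 and 0.544 RPKM in Ctrl, an estimated 18 to 29 reads each. Every LP library was thus more than 100 times above every PP library, with no value in between. Group means were 199 ± 7.42 RPKM (SD, n = 2) in LP and 0.478 ± 0.148 RPKM in PP for the mice labelled Tcf7-KO, and 107 ± 22.1 RPKM in LP and 0.529 ± 0.0219 RPKM in PP for Ctrl. LP over PP was 416-fold in mice labelled Tcf7-KO and 202-fold in Ctrl mice. On the log2(RPKM + 1) scale, which understates changes of low genes, the differences were 7.08 ± 0.76 and 6.12 ± 0.76 (SE), the fifth and the 29th largest of 10541 genes, and these ranks are what the choice of the gene rests on.

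The low PP values of Areg sat at a level that many genes reached when they were low. Among genes that averaged 20 RPKM or more over the other 7 libraries, some formed a separate low peak under 5% of that average: 321 of 3818 and 341 of 3822 genes in PP labelled Tcf7-KO, and 654 of 3800 and 686 of 3814 in PP Ctrl. The medians of this low peak were 0.738% and 0.725% in PP labelled Tcf7-KO and 0.687% and 0.733% in PP Ctrl. Such a peak was not particular to PP. It held 528 of 3970 and 380 of 3928 genes in LP labelled Tcf7-KO, and 312 of 3965 and 255 of 3975 in LP Ctrl. Areg reached 0.666% and 0.427% in PP labelled Tcf7-KO and 0.587% and 0.623% in PP Ctrl. As shares of the other libraries' mean, its PP values were therefore below the median of that peak in each PP library. For Areg this mean includes other PP libraries that were low too. The LP over PP ratios above rest on this level. The 8 libraries share a lane label, and whether reads passed between libraries was not tested. This look at low values was chosen after the values were seen.

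**Figure D2:**
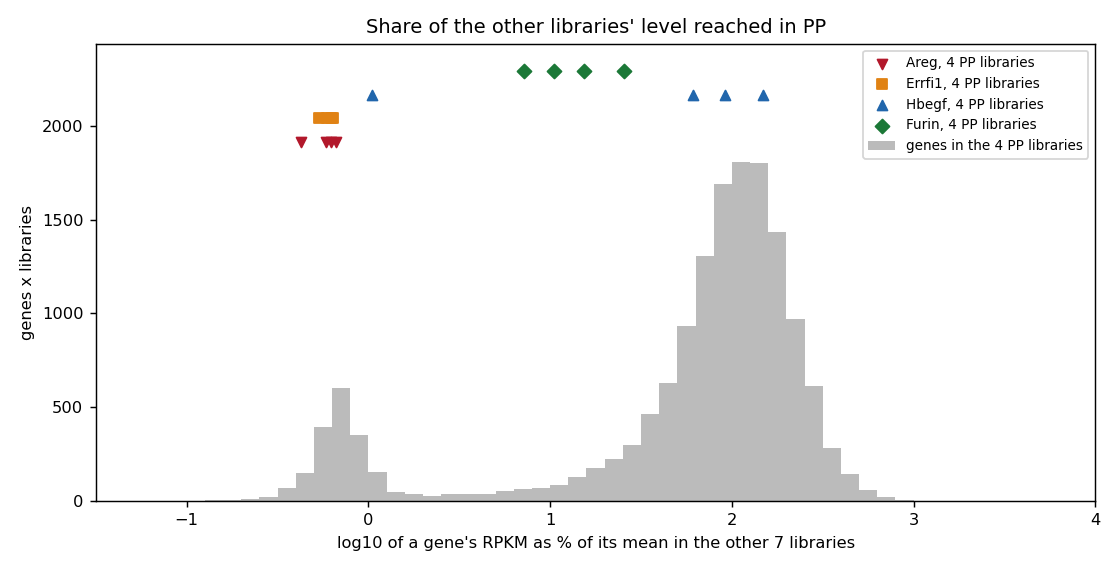
Histogram over genes in the 4 PP libraries of a gene's RPKM as a percentage of its mean in the other 7 libraries (x axis, log10 of percent; y axis, genes times libraries), for genes that averaged 20 RPKM or more there. Markers show 4 genes in each PP library at arbitrary heights: Areg and its neighbour in pattern Errfi1 sit in the low peak, Furin between the peaks, and Hbegf in the high peak except for 1 PP Ctrl library at 1.05%.

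The 250 bases before the start of Areg are shown because this promoter belongs to the factor with the widest difference, and those of Furin because Furin was chosen with it. Sequences are from RefSeq on GRCm38.p6, in the direction of transcription, with the letters TGACG (either strand), the core of a cyclic AMP response element, in capitals. Areg at chr5:91139349-91139598 on the plus strand holds the full element TGACGTCA, which contains the core on both strands, at bases 61 to 54 before the start, and 1 further core. The window before one of 2 Furin starts, chr7:80405437-80405686 on the minus strand, holds 1 core and the window of the other start none.
Areg: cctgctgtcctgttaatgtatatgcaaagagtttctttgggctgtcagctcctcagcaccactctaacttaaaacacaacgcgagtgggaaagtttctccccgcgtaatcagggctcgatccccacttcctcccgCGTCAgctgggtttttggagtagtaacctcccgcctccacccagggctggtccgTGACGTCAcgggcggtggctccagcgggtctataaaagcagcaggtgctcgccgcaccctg
Furin: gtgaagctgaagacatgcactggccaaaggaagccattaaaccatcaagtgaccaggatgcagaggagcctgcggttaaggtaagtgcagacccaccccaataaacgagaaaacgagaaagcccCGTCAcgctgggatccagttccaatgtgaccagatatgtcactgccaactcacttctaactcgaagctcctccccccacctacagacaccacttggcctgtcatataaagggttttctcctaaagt
Of 32851 promoter windows of this length, 1.55% hold TGACGTCA and 17.8% hold TGACG on either strand, and of the 5 factors whose windows were searched (Hbegf was not), Areg, Furin and Vegfa have the core. The AP-1 letters TGANTCA (6.75% of windows) and the TCF/LEF letters CTTTGA (13.8%) are in none of the windows of these 5 factors, and the HIF core ACGTG (16.6%) is in that of Vegfa. A match is only a description of letters.

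Hbegf (15200, chromosome 18), the other ErbB ligand, was abundant in all LP libraries and in 3 of 4 PP libraries. It had 106 and 111 RPKM in LP labelled Tcf7-KO and 83.1 and 122 RPKM in LP Ctrl. It had 53.6 and 77.4 RPKM in PP labelled Tcf7-KO and 118 and 1.0 RPKM in PP Ctrl. The 2 PP Ctrl libraries thus differed by 5.89 in log2(RPKM + 1), and each Ctrl comparison in PP rests on which of them is read. LP over PP was 1.65-fold in mice labelled Tcf7-KO and 1.73-fold in Ctrl mice.

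Other ligands of the family were scarce. Of 9 other ErbB ligands, 5 stayed under 1 RPKM in every library and 1, Nrg2, passed the filter. Nrg2, a neuregulin, had 0.0419 and 0.0449 RPKM in LP labelled Tcf7-KO, 0.0184 and 2.15 in LP Ctrl, 9.03 and 14.2 in PP labelled Tcf7-KO and 0.0272 and 17.7 in PP Ctrl. Tgfa reached 3.35 RPKM in 1 PP library labelled Tcf7-KO and Nrg4 reached 3.8 RPKM in 1 LP Ctrl library, with every other library at or under 0.0242 RPKM. Areg and Hbegf were thus the only ErbB ligands of the list above 20 RPKM in any library.

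Among the receptors, Egfr was listed at 0 in all 8 libraries. Erbb2, the co-receptor without a ligand of its own, reached 5.97 RPKM in 1 LP Ctrl library, 22.3 in 1 PP library labelled Tcf7-KO and 16.1 in 1 PP Ctrl library, and the other 5 libraries had at most 0.0571. Lrig1, which restrains ErbB receptors, peaked at 3.63 RPKM. Errfi1 (MIG6), the feedback inhibitor of EGFR, had 153 and 87.9 RPKM in LP labelled Tcf7-KO and 106 and 107 RPKM in LP Ctrl. In PP it had 0.386 and 0.412 RPKM in libraries labelled Tcf7-KO and 0.348 and 0.403 RPKM in Ctrl, so it followed the same pattern as Areg. Its LP minus PP difference was 6.38 ± 0.83 in mice labelled Tcf7-KO (limma, adjusted p = 0.0196) and 6.29 ± 0.83 in Ctrl mice (adjusted p = 0.0179). As with Areg, its PP values were 0.537% to 0.634% of the other libraries' mean.

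Adam17 (11491, chromosome 12 at 21323509 to 21373632), the protease that sheds both ligands, had the lower mean in LP in both genotypes. It had 3.42 and 9.43 RPKM in LP labelled Tcf7-KO, 4.37 and 0.0926 RPKM in LP Ctrl, 11.9 and 28.4 RPKM in PP labelled Tcf7-KO and 23.1 and 0.0868 RPKM in PP Ctrl. One Ctrl library in each tissue was at an estimated 16.2 and 17.2 reads, and the groups overlapped in Ctrl mice. Of 12 other sheddases and cofactors, 7 passed the filter and none passed the test in either tissue contrast. Frmd8, a cofactor that keeps ADAM17 with its iRhom partners, had 0.338 and 17.8 RPKM in LP labelled Tcf7-KO, 10.3 and 13.5 in LP Ctrl, 86.4 and 53.2 in PP labelled Tcf7-KO and 34.9 and 133 in PP Ctrl. The PP libraries were all above the LP libraries, but the average tissue difference had an adjusted p of 0.0832 (limma). Adam8, another membrane protease, ranged from under 1 to over 50 RPKM, with the 2 libraries labelled Tcf7-KO far apart in each tissue. Timp2, an inhibitor of metalloproteases, had 5.83 and 11.4 RPKM in LP labelled Tcf7-KO and 0.172 and 7.27 in LP Ctrl. In PP it had 69.7 and 48.4 RPKM in libraries labelled Tcf7-KO and 0.128 and 7.53 in Ctrl. This genotype difference in PP, 4.25 ± 1.44, did not pass (limma, adjusted p = 0.297).

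Furin (18550, chromosome 7 at 80389194 to 80405441), the convertase that activates precursor proteins in the Golgi, had the highest mean RPKM of the 6 in LP in both genotypes; in PP the mean of Hbegf was higher in both genotypes and that of Adam17 in mice labelled Tcf7-KO. It had 288 and 361 RPKM in LP labelled Tcf7-KO and 181 and 182 RPKM in LP Ctrl. It had 16.4 and 11.3 RPKM in PP labelled Tcf7-KO and 38.7 and 23.8 RPKM in PP Ctrl. The means were 325 ± 51.9 RPKM (SD, n = 2) in LP labelled Tcf7-KO, 182 ± 0.747 in LP Ctrl, 13.8 ± 3.62 in PP labelled Tcf7-KO and 31.2 ± 10.6 in PP Ctrl. No 2 groups overlapped, and PP labelled Tcf7-KO was the lowest of the 4. LP over PP was 23.5-fold in mice labelled Tcf7-KO and 5.82-fold in Ctrl mice, differences of 4.47 ± 0.47 and 2.54 ± 0.47 in log2(RPKM + 1). Unlike Areg, its PP values were 7.22% to 25.5% of the other libraries' mean. Of 8 other convertases, 5 stayed under 1 RPKM everywhere. Pcsk7 had 16.8 and 37.5 RPKM in LP labelled Tcf7-KO, 0.954 and 1.85 in LP Ctrl, 13 and 35.7 in PP labelled Tcf7-KO and 4.39 and 4.17 in PP Ctrl, and neither genotype comparison passed (limma, adjusted p = 0.569 in LP and 0.545 in PP). Mbtps1, the site-1 protease, had 17.7 to 52.9 RPKM in 7 libraries and 0.180 in 1 PP Ctrl library, and Pcsk5 did not exceed 2.05.

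Tgfb1 (21803, chromosome 7 at 25687002 to 25705077), which encodes the precursor that furin cleaves, was low and variable. It had 3.63 and 0.717 RPKM in LP labelled Tcf7-KO, 2.33 and 10.5 in LP Ctrl, 4.95 and 1.22 in PP labelled Tcf7-KO and 2.72 and 0.0431 in PP Ctrl. The groups overlapped in every comparison, and the lowest PP Ctrl value is an estimated 4.11 reads. Of 12 other genes for TGF-β ligands and activation, 6 stayed under 1 RPKM everywhere and none passed a tissue test. Itgav, an integrin subunit that activates latent TGF-β, had 69.6 and 69.7 RPKM in LP labelled Tcf7-KO, 66.8 and 37.8 in LP Ctrl, 1.96 and 12 in PP labelled Tcf7-KO and 13.1 and 0.227 in PP Ctrl. Its average tissue difference of 3.57 ± 0.89 fell short of the threshold (limma, adjusted p = 0.0511). Nrros ranged from 3.60 to 69.0 RPKM, and Tgfb3 exceeded 2 RPKM only in 1 LP library labelled Tcf7-KO (21.2).

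Of 10 TGF-β receptors, SMADs and their partners, 9 passed the filter. Tgif1 and Skil, both co-repressors of SMAD signalling, were the 2 that passed a tissue test, both in Ctrl mice. Tgif1 had 234 and 262 RPKM in LP labelled Tcf7-KO, 304 and 207 in LP Ctrl, 69.8 and 48.6 in PP labelled Tcf7-KO and 9.82 and 26.9 in PP Ctrl. It was higher in LP by 3.86 ± 0.56 in Ctrl mice (limma, adjusted p = 0.0251) and its average difference was 2.96 ± 0.49 (adjusted p = 0.00723). Skil had 40.4 and 52.9 RPKM in LP labelled Tcf7-KO, 51.3 and 72.0 in LP Ctrl, 14.7 and 32.1 in PP labelled Tcf7-KO and 2.22 and 3.70 in PP Ctrl, and passed in Ctrl mice (3.99 ± 0.73, adjusted p = 0.0464). The receptor Tgfbr2 reached 117 RPKM and Smad3 ranged from 0.272 to 104.

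Vegfa (22339, chromosome 17 at 46016993 to 46032377), the vessel growth factor, was moderate in LP and low in PP. It had 30.6 and 20.4 RPKM in LP labelled Tcf7-KO, 4.23 and 11 in LP Ctrl, 7.09 and 1.02 in PP labelled Tcf7-KO and 1.10 and 3.39 in PP Ctrl. LP over PP was 6.29-fold in mice labelled Tcf7-KO and 3.39-fold in Ctrl mice, and the LP libraries lay above the PP libraries of the same genotype. Of 12 other genes of VEGF signalling and hypoxia factors, 6 stayed under 1 RPKM everywhere and none passed a tissue test. Nrp1, a VEGF co-receptor that also marks LTi cells, ranged from 32.9 to 147 RPKM, and the hypoxia factors Hif1a (0.232 to 61.1) and Epas1 (13.4 to 71.5) overlapped between the tissues.

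Among 16 other repair and growth factors, Il22, the ILC3 cytokine that acts on epithelium, was the highest. It had 4422 and 4047 RPKM in LP labelled Tcf7-KO, 5254 and 5318 in LP Ctrl, 615 and 460 in PP labelled Tcf7-KO and 865 and 585 in PP Ctrl. It was higher in LP by 2.99 ± 0.22 in mice labelled Tcf7-KO (limma, adjusted p = 0.00366) and 2.89 ± 0.22 in Ctrl mice (adjusted p = 0.00436). Tff3, a trefoil factor of goblet cells, had 416 and 391 RPKM in LP labelled Tcf7-KO, 54.7 and 493 in LP Ctrl, 37.4 and 36.4 in PP labelled Tcf7-KO and 2.58 and 1.47 in PP Ctrl. It passed in Ctrl mice (5.80 ± 0.97, adjusted p = 0.0376), and the epithelial marker list summed to 159 to 439 RPKM in LP and 150 to 682 RPKM in PP; the part of epithelial RNA in it was not tested. Mmp9, a matrix protease, went the other way in mice labelled Tcf7-KO, with at most 0.0909 RPKM in LP against 16 and 19.2 RPKM in PP (-4.12 ± 0.69, limma, adjusted p = 0.0387). In PP Ctrl it had only 0.0164 and 0.0503 RPKM, and its tissue difference in Ctrl mice was 0.022 ± 0.69. Csf2 had 234 and 122 RPKM in LP labelled Tcf7-KO and 33.6 and 24.5 in LP Ctrl, against 29.6 and 4.98 in PP labelled Tcf7-KO and 21.5 and 7.76 in PP Ctrl.

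Receptors listed as possible inputs to Areg were present only in part. Il1rl1, the IL-33 receptor that drives amphiregulin in ILC2, was at most 0.00373 RPKM. Adora2a, an adenosine receptor, had 13.5 and 7.78 RPKM in LP labelled Tcf7-KO and 7.70 and 10.7 in LP Ctrl, and at most 0.0491 RPKM in PP. Its average tissue difference was 3.38 ± 0.82 (limma, adjusted p = 0.0463), a call that was lost whichever library was left out (adjusted p = 0.0707 to 0.129). Il1r1, Il23r and Tnfrsf25 were over 25 RPKM in every library. Over all 9 lists, 47 of 95 other genes passed the filter. In mice labelled Tcf7-KO, 3 of them passed the tissue test (Errfi1 and Il22 higher, Mmp9 lower), 6.38% against 2% of all genes, and in Ctrl mice 5 (Errfi1, Il22, Skil, Tff3 and Tgif1, all higher), 10.6% against 2.13%. Over both genotypes 5 passed (Adora2a, Errfi1, Il22, Tff3 and Tgif1), 10.6% against 4.33%. The lists were chosen with earlier results of these data known, so these shares are a description and no test of the lists. The median difference of the 47 genes was -0.036 in mice labelled Tcf7-KO and 0.13 in Ctrl mice, against -0.29 and 0.085 over all genes.

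**Figure D3:**
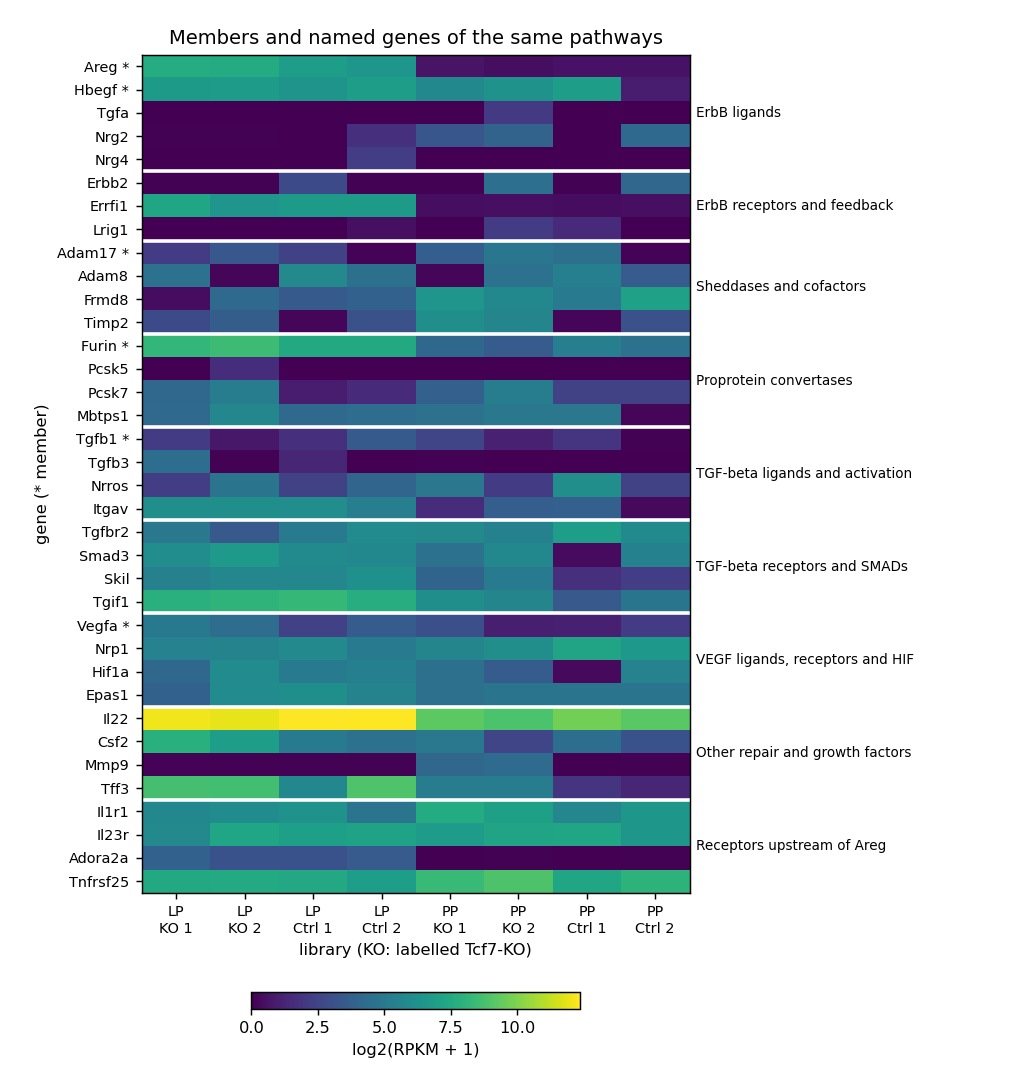
Heat map of log2(RPKM + 1) for the 6 factors (asterisks) and the named genes of the 9 lists (rows, grouped by list) in the 8 libraries (columns, LP left and PP right). Errfi1 and Adora2a share the LP pattern of Areg, Il22 is the brightest row, and single dark cells within a group mark libraries far below their replicate.

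These calls were sensitive to single libraries. Those of Skil and Tff3 in Ctrl mice and of Mmp9 in mice labelled Tcf7-KO were lost whichever library was left out. The counts below can include genes outside the 5 and the 3 named. Without 1 library at a time, the Ctrl count of 5 was 0 without either LP Ctrl library, 1 without either LP library labelled Tcf7-KO, 2 without either PP library labelled Tcf7-KO, 3 without PP Ctrl library 1 and 4 without PP Ctrl library 2. The count of 3 in mice labelled Tcf7-KO was 1 without either LP Ctrl library, either LP library labelled Tcf7-KO or PP library 1 labelled Tcf7-KO, 0 without PP library 2 labelled Tcf7-KO, and 2 without either PP Ctrl library.

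The genotype comparison asked whether the factors differed between mice labelled Tcf7-KO and Ctrl mice within a tissue. In LP, Areg, Furin and Vegfa were higher in both libraries labelled Tcf7-KO than in both Ctrl libraries, which 15.3% of all genes were, and none was lower without overlap (20.3% of all genes). Areg was 1.86-fold higher (0.91 ± 0.76 in log2(RPKM + 1), 95% interval -0.89 to 2.71), Furin 1.79-fold (0.82 ± 0.47, -0.29 to 1.94) and Vegfa 3.36-fold (1.72 ± 1.18, -1.07 to 4.51). None of the 6 passed the test in LP (limma, adjusted p = 1 for each), where 3 of 10541 genes, 0.0285%, passed and 556 had an unadjusted p under 0.05. The myeloid marker list summed to 99.9 and 55.4 RPKM in LP labelled Tcf7-KO and 11.3 and 0.299 RPKM in LP Ctrl. Most of this was Cd14 (90.5 and 32.5 RPKM labelled Tcf7-KO, 10.6 and 0.0512 Ctrl) and Cd68 (9.38 and 20.3 RPKM labelled Tcf7-KO, 0.206 and 0.127 Ctrl). Of the 12 genes of the list, 7 were under 1 RPKM in every library, C1qa, C1qb, S100a8 and S100a9 at 0, and the part of these transcripts in the values of the factors was not tested. The intervals allow no difference and also changes of several fold.

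In PP, Furin was the only factor without overlap, lower in mice labelled Tcf7-KO (14.8% of all genes were lower without overlap and 22.7% higher). Furin stood at 0.443 of its Ctrl level, a difference of -1.10 ± 0.47 (95% interval -2.22 to 0.011), which did not pass (limma, adjusted p = 0.447). Areg differed by -0.05 ± 0.76 in PP (adjusted p = 1). None of the 6 passed in PP, where 38 of 10541 genes (0.36%) did and 1201 had an unadjusted p under 0.05. Mitochondrial RNA was higher in PP labelled Tcf7-KO (above), and the list for B and plasma cells came to 7390 and 7126 RPKM there, against 13718 and 13634 RPKM in PP Ctrl. The immunoglobulin gene Igkc made up most of these sums, with 4748 and 4368 RPKM in PP labelled Tcf7-KO and 11411 and 11308 RPKM in PP Ctrl. Jchain and Ighm were also lower there without overlap. Igha (1733 and 1939 RPKM against 1368 and 1438) and Cd79b (266 and 197 against 59.4 and 49.3) were higher there. The other genes of the list overlapped between the genotypes. When libraries were scaled to the RPKM left after taking out immunoglobulin and mitochondrial genes, Furin differed by -0.98. Hbegf differed by 2.09 ± 1.64 (adjusted p = 0.695), but by 5.03 with an adjusted p of 0.0481 without PP Ctrl library 1, which leaves the library at 1.0 RPKM alone, and by -0.86 without PP Ctrl library 2.

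**Figure D4:**
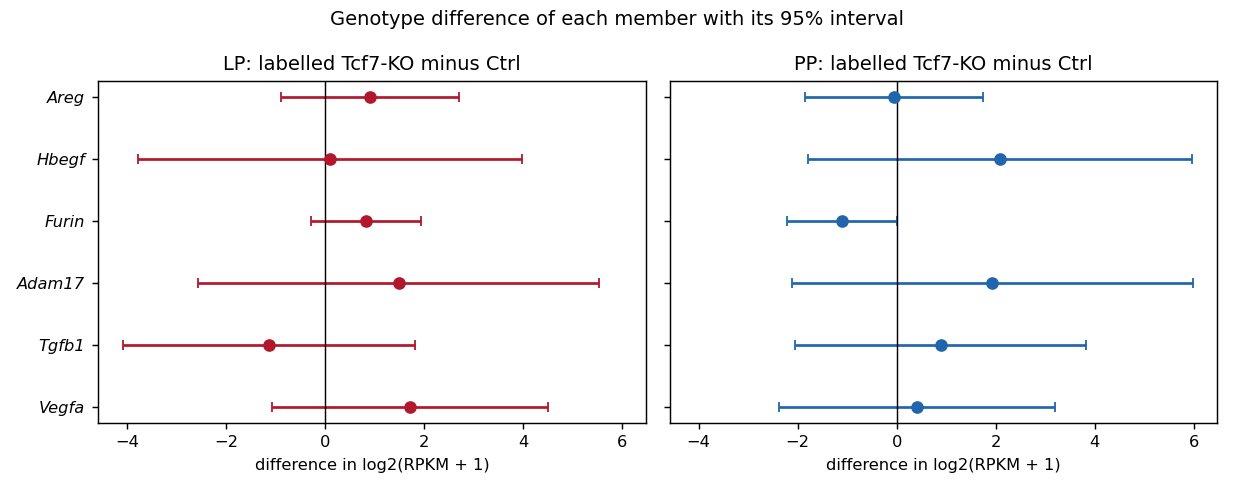
Difference in log2(RPKM + 1), labelled Tcf7-KO minus Ctrl, of each factor in LP (left) and PP (right), as point estimates with 95% intervals from limma (n = 2 libraries per group). Every interval includes 0; Areg, Furin and Vegfa have positive estimates in LP, and Furin is the factor with a negative estimate in PP whose interval ends nearest to 0.

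Furin thus had genotype differences of opposite sign in the 2 tissues, higher in LP labelled Tcf7-KO and lower in PP labelled Tcf7-KO than in Ctrl. The interaction, the LP difference minus the PP difference, was 1.93 ± 0.67 and did not pass after adjustment (limma, adjusted p = 0.442). It equals the tissue difference in mice labelled Tcf7-KO minus that in Ctrl mice. Those differences chose Furin, so this test is not independent of the choice. None of the 6 passed the interaction test, where 3 genes (0.0285%) did and 922 had an unadjusted p under 0.05. None passed for the average genotype difference either, where 1 gene (0.00949%) did and 718 had an unadjusted p under 0.05. The genotype and tissue comparisons share libraries, so their values for a factor are not independent of each other.

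Other cell types were looked for through their markers. Il13, Il5 and Hpgd of the ILC2 list and Foxp3 of the regulatory T cell list were at 0 in all 8 libraries. The ILC2 list summed to 35.6 to 63.6 RPKM in LP and 51.3 to 135 in PP, mostly from Gata3 (24.2 to 119). Its gene Il17rb had 26.5 RPKM in LP Ctrl library 2 and 12.4 in LP library 1 labelled Tcf7-KO. In PP library 2 labelled Tcf7-KO it had 18.5. Klrg1 had 10.7 RPKM in LP Ctrl library 1, and Bmp7 had 35.6 in PP Ctrl library 1. The regulatory T cell list summed to 163 to 380 RPKM in LP and 247 to 502 in PP. Its genes Il2ra (45.6 to 116 RPKM), Ctla4 (10.1 to 63.2) and Cd4 (48.7 to 318) were present in every library. The T cell receptor components Cd3e and Cd3g ranged from 0.179 to 56.3 and from 0.274 to 111 RPKM. Basophil and mast cell markers summed to 4.13 to 13.1 RPKM in LP and 0.0285 to 18.6 in PP, with Mcpt8, Mcpt4, Fcer1a, Ms4a2 and Tpsb2 at 0. B and plasma cell markers moved with tissue, at 24482 to 38719 RPKM in LP and 7126 to 13718 in PP, carried by Igkc (14326 to 23305 in LP, 4368 to 11411 in PP) and Igha (7896 to 13349 in LP, 1368 to 1939 in PP). Immunoglobulin genes took 10.3% to 17.1% of the RPKM sum in LP and 2.81% to 6.38% in PP. The stromal and endothelial list summed to 28.1 to 64.4 RPKM in LP and 78.3 to 205 in PP. Whether RNA of plasma cells had a part in the LP values of Areg and Furin was not tested.

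**Figure D5:**
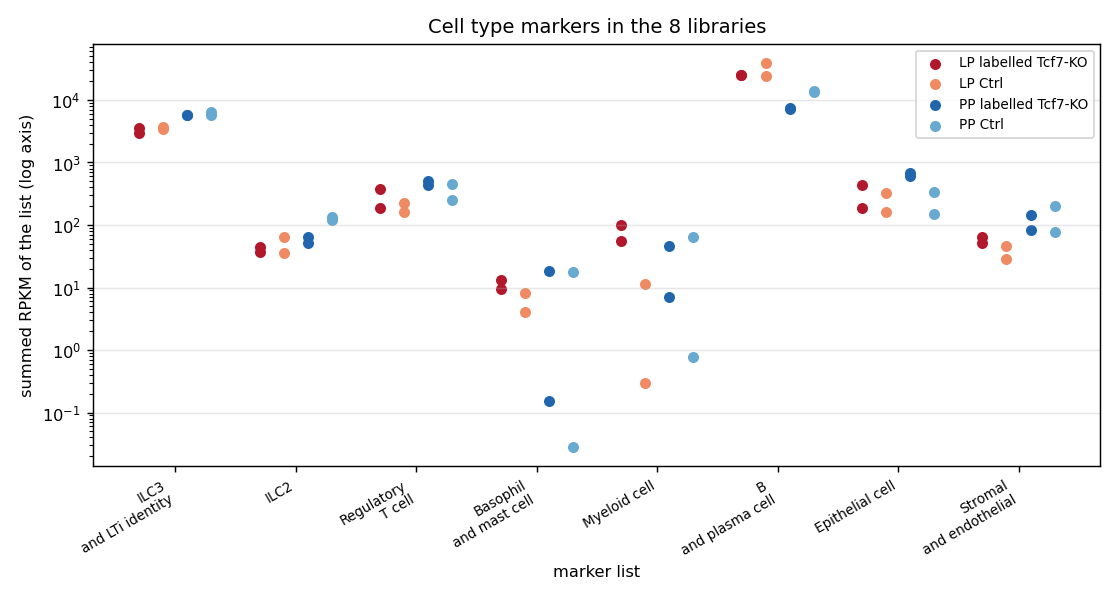
Summed RPKM (log axis) of 8 marker lists, with 2 points (libraries) for each of the 4 groups. LTi identity genes lie between 2905 and 6528 RPKM in all libraries, B and plasma cell markers are at 24482 RPKM or more in LP and 13718 or less in PP, and basophil and myeloid lists are scattered.

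Genes with the most similar pattern over the 8 libraries, by Pearson's r of log2(RPKM + 1) among 7264 genes, were for Areg Dot1l (0.999), Cep83 (0.998), Satb1 (0.997), Cxcl9 (0.995) and Trpt1 (0.995), of 102 genes at 0.95 or above. For Furin they were Isy1 (0.986), Rrad (0.985), Cnbp (0.984), H2-Q6 (0.983) and Junb (0.982), of 54 at 0.95 or above. These r values are descriptions over 8 libraries that fall into 2 tissues, so any gene that splits by tissue gives a high r. Areg and Furin had an r of 0.968 with each other, Areg and Errfi1 0.994, Areg and Vegfa 0.785, and Areg and Adam17 -0.344. The other members were less similar to Areg, with 0.455 for Hbegf and 0.268 for Tgfb1.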

How the data were processed

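LTi cells of 8 libraries were compared. The deposited values are log2(RPKM + 1) made by the authors, with 0.0001 in place of 0, and RPKM was obtained from them by undoing the log2. Per the submitters' processing notes, counting used featureCounts (Subread) and the mm10 build. Versions, annotation release and strandedness were not given in the sources used here. Log base was checked on low genes: 52.1% of 424 values were whole reads within 0.15 after undoing log2, against 29.1% of 498 with no log. Depth is an estimate from gene lengths. Symbols and positions came from RefSeq GRCm38.p6 (25275 of 27179 genes matched).

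A gene was kept if 2 or more libraries reached 1 RPKM (10541 genes). The model of log2(RPKM + 1) came from limma 3.58.1, run under R 4.3.3 (4 group means, eBayes with trend, an additive model for average effects), two-sided, with Benjamini-Hochberg adjustment over all genes kept and a threshold of 0.05. The SE of a 2-group difference had a median of 1.24. The 6 members, the pathway and marker lists and these comparisons were chosen with earlier results of these data known. The results of 1 marker gene are not reported here, and its list was summed without it. Named genes are the members, Tcf7, those of each list that passed, and its 3 highest by mean RPKM. Likeness used genes averaging 5 RPKM or more. Alternatives were another pseudocount, filters, 2 rescalings, no trend, only the compared groups, a replicate block and each library left out.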

Additional observations from a re-analysis of the deposited data

Results flagged for a closer look

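Furin was set apart because its genotype difference ran in opposite directions in the 2 tissues with no overlap between libraries: 288 and 361 RPKM in LP labelled Tcf7-KO against 181 and 182 in LP Ctrl, and 16.4 and 11.3 RPKM in PP labelled Tcf7-KO against 38.7 and 23.8 in PP Ctrl. The LP difference minus the PP difference was 1.93 in log2(RPKM + 1), with an adjusted p of 0.442 (limma), so it did not pass. That test is not independent of the tissue differences that chose Furin. It lay between 1.59 and 2.27 with any 1 library left out.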

How the results depend on the processing

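The counts of factors passing the genotype and interaction tests stayed at 0 under the alternatives run, except in PP without Ctrl library 1, where Hbegf passed (range 0 to 1 with 1 library left out). Among the other pathway genes, the tissue count of 5 in Ctrl mice was 2 without the trend and 0 with only the compared groups, and that of 3 in mice labelled Tcf7-KO was 0 with only the compared groups; the average count of 5 was 3 with no filter. Adora2a passed on average in 4 of 16 alternatives. With 1 library left out they ranged from 0 to 4 in Ctrl mice and from 0 to 2 in mice labelled Tcf7-KO, and from 4 to 6 for the average, a lone library being assumed to vary like the others. The replicate block gave 2 in Ctrl mice and 1 in mice labelled Tcf7-KO, and 74 instead of 211 of all genes there. Deviations from the group means correlated at -0.0214 to 0.0103 between same-numbered libraries. Replicates often disagreed in single genes, so this check cannot tell whether same-numbered libraries are paired.

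The sign of small differences turned. The average genotype difference of Tgfb1 was 0.24 with a pseudocount of 0.1. With 1 library left out, the ranges were as follows. For genotype in LP they were Hbegf -0.17 to 0.38. For interaction they were Adam17 -2.67 to 1.80 and Hbegf -4.93 to 0.96. For average genotype they were Tgfb1 -0.69 to 0.43, Furin -0.40 to 0.19 and Hbegf -0.28 to 2.07. For tissue in Ctrl mice they were Adam17 -3.31 to 1.16 and Hbegf -0.22 to 5.67. For genotype in PP they were Vegfa -0.59 to 1.41, Hbegf -0.86 to 5.03, Tgfb1 -0.032 to 1.80, Adam17 -0.31 to 4.16 and Areg -0.15 to 0.050. For tissue in mice labelled Tcf7-KO they were Tgfb1 -1.08 to 0.35. The cause was not tested. Under median-of-ratios rescaling the all-gene median of the tissue difference was -0.062 in mice labelled Tcf7-KO (-0.29 as deposited) and 0.35 in Ctrl mice (0.085 as deposited), with Areg at 7.31 and 6.33. Areg's tissue difference was 5.22 and 4.32 with a pseudocount of 5, and 8.45 and 7.39 with one of 0.1, in mice labelled Tcf7-KO and in Ctrl mice. Counts over all genes ranged across settings, left-out libraries aside, from 0 to 138 for genotype in PP (38 as reported), 0 to 56 for genotype in LP (3), 0 to 36 for the interaction (3), 1 to 2 for average genotype (1), 0 to 230 for tissue in mice labelled Tcf7-KO (211), 0 to 257 for tissue in Ctrl mice (224) and 271 to 560 for average tissue (456). With 1 library left out they were 1 to 34, 0 to 3, 0 to 2, 1 to 4, 7 to 161, 0 to 192 and 225 to 438 in the same order. The lowest value of Tgfb1 was an estimated 4.11 reads in PP Ctrl library 2, and a part of depth in it was not tested. The lowest values of Adam17 were an estimated 16.2 reads in LP Ctrl library 2 and 17.2 in PP Ctrl library 2. These were 0.804% and 0.754% of the mean of the other 7 libraries, and that of Tgfb1 was 1.155%. All lay under the 5% used above for low values.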

Other observations

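Areg belonged to a small set of genes that were on in LP and near 0 in PP. In all, 29 genes had at least 10 RPKM in all LP libraries and under 1 RPKM in all PP libraries, and 12 genes showed the reverse. These genes are named here after their values were seen. Ordered by the lowest LP value, Areg was the second and Errfi1 the fourth. Cxcl10, a chemokine induced by interferon, headed the set with 130 to 434 RPKM in LP and 0.756 to 0.940 RPKM in PP. Ptgs2, which encodes cyclooxygenase 2, had 18.9 to 152 RPKM in LP and 0.256 to 0.294 in PP, and Cxcl1, a neutrophil chemokine, had 20.8 to 64.7 RPKM in LP and 0.130 to 0.330 in PP.

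Replicates often disagreed on whether a gene was on. Of the 10541 genes, 12.4% in LP labelled Tcf7-KO, 7.84% in LP Ctrl, 14.9% in PP labelled Tcf7-KO and 22.8% in PP Ctrl were under 1 RPKM in one library and at least 10 in the other.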
